A study of Mus musculus with 3 samples.

Results

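The Ikaros family and a group of genes tied to lymphoid priming were described in the open chromatin of hematopoietic stem cells (HSCs): Ikzf1, Ikzf2, Ikzf3, Ikzf5, Satb1, Dntt, Bach2 and Foxp1. These 8 genes, of 21670 protein-coding genes on chromosomes 1 to 19 and X, were taken by name, and all 8 were found in the annotation. The question was which of them already had an open promoter or open distal elements in HSCs, and in what share of cells. This series holds 3 libraries (chromatin accessibility, RNA and antibody tags) from a single DOGMA-seq preparation, a method that reads all of these from the same cells. The cells were long-term HSCs sorted as LSK CD48- CD150+ CD34- from c-Kit-enriched bone marrow of wild-type C57BL/6 females aged 8 weeks. No treatment and no transgene was given in the labels, and the number of mice behind the preparation was not given in the sources used here. There was therefore 1 library, no replicate and no second condition, so every value below describes this library and no test between conditions was possible.

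Lymphoid priming is the low-level use of lymphoid genes in cells that are not yet committed to the lymphoid lineage. Ikaros (Ikzf1), Helios (Ikzf2), Aiolos (Ikzf3) and Pegasus (Ikzf5) are zinc-finger proteins that pair with each other and act largely on chromatin, and Ikaros is needed to make lymphocytes. Satb1 is a chromatin organizer of lymphoid cells, Bach2 is a repressor that favors lymphoid over myeloid fate and shapes B and T cell responses, Foxp1 is a forkhead factor of early B cells and quiescent T cells, and Dntt encodes terminal deoxynucleotidyl transferase, which adds untemplated bases where antigen-receptor segments join.

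The genes lie on 7 chromosomes of GRCm38. Of the Ikaros family, Ikzf1 spans chr11:11685003-11772926 on the plus strand, and Ikzf2 (chr1:69531214-69687245), Ikzf3 (chr11:98464902-98546031) and Ikzf5 (chr7:131388652-131410521) lie on the minus strand. Satb1 (chr17:51736187-51833290) and Foxp1 (chr6:98925338-99522721) are also read from the minus strand, and Dntt (chr19:41029275-41059525) and Bach2 (chr4:32238804-32586108) from the plus strand. Their lengths run from 21.9 kb for Ikzf5 to 597 kb for Foxp1, so the windows of long genes hold more bins.

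In the assay a transposase inserts into open DNA, and each sequenced fragment therefore has 2 ends, called cuts here. A site was counted as open in a cell when at least 1 cut of that cell fell in it. Of 3757 called cells, the 3108 with more than 3000 fragments in peaks were used, with a median of 11457 fragments per cell (lowest 3977, highest 194399). A missing cut at this depth does not show closed chromatin in that cell. Intervals are exact 95% binomial intervals and cover counting error over cells only. The sorted cells carried open starts (a cut within 500 bp of the start in 10% or more of cells) at 7 of 10 HSC and sorting-gate genes, among them Hlf at 40.0%, Meis1 at 29.5% and Kit at 27.1%. The other 3 were Procr at 6.02%, Slamf1 (CD150) at 3.31% and Ly6a (Sca-1) at 1.19%. Of 11 marker genes of mature or committed blood cells, 0 were open, with a median of 0.225%. Of 5 genes of other tissues, 0 were open, and Ins2 had a cut in 0 of 3108 cells, which allows a share of up to 0.0965% by the limit of 3 counts and 0.119% by the exact interval.

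The sequences that frame the results are shown first, read from the RefSeq copy of GRCm38 (mm10), the build of the deposited fragments, and written 5′ to 3′ on the strand of the gene. The first set gives the 200 bases before the start that was open in the most cells for Ikzf1, Ikzf2 and Foxp1, beside the same stretch for Dntt, whose start was almost never cut. Capitals mark CpG dinucleotides, the feature of CpG island promoters. The stretches lie at chr11:11685725-11685924 on the plus strand (Ikzf1), chr1:69687246-69687445 on the minus strand (Ikzf2), chr6:99522722-99522921 on the minus strand (Foxp1) and chr19:41029075-41029274 on the plus strand (Dntt).
Ikzf1: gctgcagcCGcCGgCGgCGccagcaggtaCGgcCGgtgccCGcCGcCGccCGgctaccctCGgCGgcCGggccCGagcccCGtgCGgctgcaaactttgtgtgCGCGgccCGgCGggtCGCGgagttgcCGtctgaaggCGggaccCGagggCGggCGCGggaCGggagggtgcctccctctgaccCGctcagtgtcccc
Ikzf2: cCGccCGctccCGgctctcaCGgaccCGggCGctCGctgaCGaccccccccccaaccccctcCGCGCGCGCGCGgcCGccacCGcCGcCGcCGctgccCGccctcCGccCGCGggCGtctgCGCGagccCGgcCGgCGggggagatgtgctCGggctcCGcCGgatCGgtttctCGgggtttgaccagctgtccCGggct
Foxp1: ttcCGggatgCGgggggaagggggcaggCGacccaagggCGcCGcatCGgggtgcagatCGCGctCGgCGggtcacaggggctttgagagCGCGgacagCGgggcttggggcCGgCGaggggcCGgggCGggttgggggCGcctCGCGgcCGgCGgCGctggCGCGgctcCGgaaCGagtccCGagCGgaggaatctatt
Dntt: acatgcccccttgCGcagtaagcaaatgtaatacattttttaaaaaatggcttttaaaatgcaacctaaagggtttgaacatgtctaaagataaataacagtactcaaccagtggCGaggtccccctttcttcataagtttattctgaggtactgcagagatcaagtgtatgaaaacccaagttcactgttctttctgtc
The 3 open starts held 30, 35 and 29 CpG dinucleotides in 200 bases, and Dntt held 2. As a ratio to the number that base composition alone would give, this was 0.962 for Ikzf1, 1.10 for Ikzf2, 1.10 for Foxp1 and 0.279 for Dntt. Over all genes the median ratio, taken in 300 bases centered on the principal start, was 0.862 for the 9539 open starts and 0.282 for the other 12131.

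The second set gives 300 bases around the most frequently cut position of the leading distal element of Ikzf1 (chr11:11788711-11789010) and Dntt (chr19:41031076-41031375), both on the plus strand, since these elements were open in at least as large a share of cells as many promoters or stood beside a start that was rarely cut. Capitals mark matches, on either strand, to short words that blood transcription factors are known to favor. The word AGGAAG was searched for the ETS family and the word TGTGGT for the RUNX family. For the GATA family the word searched was AGATAA, and for the Ikaros family it was TGGGAA. The E-box of basic helix-loop-helix factors was searched as CAGCTG, and the site of the AP-1 dimer as TGACTCA, and no match overlapped another in the elements shown.
Ikzf1 distal element: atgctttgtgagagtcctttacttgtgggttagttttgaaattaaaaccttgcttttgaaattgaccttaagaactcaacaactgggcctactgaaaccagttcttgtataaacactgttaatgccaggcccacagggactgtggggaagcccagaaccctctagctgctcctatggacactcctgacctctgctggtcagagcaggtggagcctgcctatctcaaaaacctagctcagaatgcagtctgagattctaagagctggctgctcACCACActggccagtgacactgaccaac
Dntt intron element: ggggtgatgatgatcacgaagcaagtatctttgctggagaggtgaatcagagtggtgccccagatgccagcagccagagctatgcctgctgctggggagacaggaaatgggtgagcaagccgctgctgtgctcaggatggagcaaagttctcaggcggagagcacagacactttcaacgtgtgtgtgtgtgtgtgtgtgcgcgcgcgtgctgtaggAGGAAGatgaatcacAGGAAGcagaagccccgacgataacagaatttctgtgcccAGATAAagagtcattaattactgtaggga
The Ikzf1 element held 1 RUNX word and 0 CpG dinucleotides. The Dntt element held 2 ETS words and 1 GATA word. Among all 12015 open distal regions of the genome, windows of the same length held the ETS word in 47.8%, the RUNX word in 28.9%, the GATA word in 14.2%, the Ikaros word in 26.5%, the E-box in 20.7% and the AP-1 word in 9.44%. These matches describe letters in a window and do not show that a factor was bound.

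At the start of the principal transcript (the isoform ranked first in the annotation), 4 of the 8 genes were open in 10% or more of HSCs, against 44% of all protein-coding genes, so the share of members was near the background. Ikzf5, the Pegasus gene, led with a cut in 999 of 3108 cells, or 32.1% (30.5 to 33.8). Ikzf1, the Ikaros gene, had 26.9% (25.3 to 28.5), Bach2 24.7% (23.2 to 26.3) and Satb1 22.4% (20.9 to 23.9). The intervals of Ikzf1 and Bach2 overlapped, as did those of Bach2 and Satb1, while Ikzf5 stood above the other members in this window. With 1000 bp either side Ikzf1 led with 34.9%, and Ikzf5 and Bach2 had 32.9% and 32.7%. The remaining genes were Ikzf3, the Aiolos gene, at 6.56% (5.72 to 7.49), Foxp1 at 4.57% (3.86 to 5.36), Ikzf2, the Helios gene, at 3.19% (2.60 to 3.86), and Dntt at 0.322% (0.154 to 0.591), a cut in 10 cells. The intervals of Ikzf2 and Foxp1 touched, and Ikzf3 and Dntt stood apart from their neighbors in this order. The median of all genes was 6.98%, so the 4 open members lay 3.20 to 4.60 times above it and between percentiles 73.1 and 82.5 of all genes, and Dntt lay at percentile 25.7.

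The principal transcript was not always the isoform whose start was open. When each gene was given the annotated start with the highest share, 6 of the 8 were open, against 47.8% of all genes treated in the same way. For Ikzf2 that start belonged to Ikzf2-202, 1424 bp upstream of the principal one, and had a cut in 31.2% of cells (29.6 to 32.8). For Foxp1 it belonged to Foxp1-216, 256 kb upstream of the principal start, and had 29.2% (27.6 to 30.8). The transcripts that begin there are not annotated as protein-coding, and the nearest coding starts downstream had 12.4% when joined. Ikzf1 was higher at Ikzf1-203, 288 bp upstream, with 33.4% (31.7 to 35.1), where its window overlapped that of the principal start. Ikzf3 stayed at 6.56% and Dntt reached 0.354%, so these were the 2 members with no open start at any annotated isoform. Ikzf5 begins head to head with Acadsb, a gene of fatty acid and amino acid breakdown, and the cuts of the pair could not be separated.

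**Figure D1:**
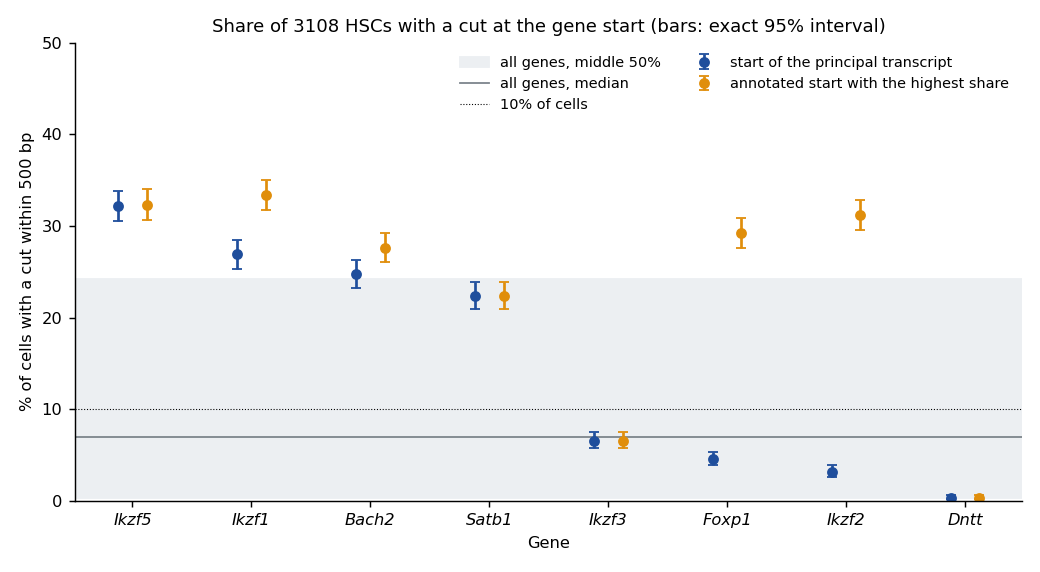
Share of 3108 HSCs (y axis, %) with a cut within 500 bp of the start of each gene (x axis), at the principal start (blue) and at the annotated start with the highest share (orange), with exact 95% intervals; the band holds the middle 50% of all 21670 genes and the gray line their median. Ikzf2 and Foxp1 move from 3.19% and 4.57% to 31.2% and 29.2% when the other start is used, while Ikzf3 and Dntt stay under 10%.

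The 4 members with many alternative starts were then followed start by start, joining starts that lay within 500 bp of each other. Ikzf2 had 4 groups of starts within 2.71 kb. Its first group was open in 31.2% of cells, and the other 3 ranged from 2.54% to 3.47%, with the principal start in the second group. The open chromatin of Ikzf2 was thus found at its most upstream start.

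Foxp1 spans 597 kb and had 14 groups of starts. Its first group was open in 29.7% (28.1 to 31.3) and the second, 1.56 kb further on, in 12.4% (11.2 to 13.6). These 2 mark the 5′ end of the gene, and of the 2 only the second holds protein-coding transcripts. The fifth group, which holds the principal start, had 4.57%, and the eighth, 427 kb into the gene, had 5.37%. The eleventh group, 494 kb from the first and the start of 5 shorter transcripts, was open in 11.5% (10.4 to 12.7). The other 9 groups ranged from 0.161% to 6.11%, so open starts lay at the 5′ end and 494 kb into this long gene, and most of the others had few cuts.

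Satb1 had 11 groups of starts. The first and the second, 0.618 kb apart and sharing part of their windows, were open in 20.9% (19.5 to 22.4) and 22.4% (20.9 to 23.9), and the third, 1.27 kb from the first, was just below the threshold with 9.97% (8.94 to 11.1). A second cluster about 20 kb downstream was weaker, with 3.47% at the seventh group and 6.50% (5.66 to 7.42) at the eighth. The remaining 6 groups were cut in 0.0965% to 0.386% of cells. The most cut position in the principal window lay 337 bp upstream of the start, and a window of 250 bp either side held 11.3%.

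Bach2 had 5 groups of starts over 336 kb. Its first group, with the principal start, was open in 29.4% (27.8 to 31.1), and the fifth, 336 kb away near the end of the gene, was cut in 7.27% (6.38 to 8.24). The other 3 were at 0.193% to 1.54%. Ikzf1, with only 2 groups, was open at both, in 10.1% (9.07 to 11.2) and 33.8% (32.1 to 35.5) of cells, 0.922 kb apart. These 2 groups share part of their windows, and the interval of the first reaches below the threshold of 10%. Ikzf3 had 6.79% at its first group and 0.193% and 0.257% at the others.

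**Figure D2:**
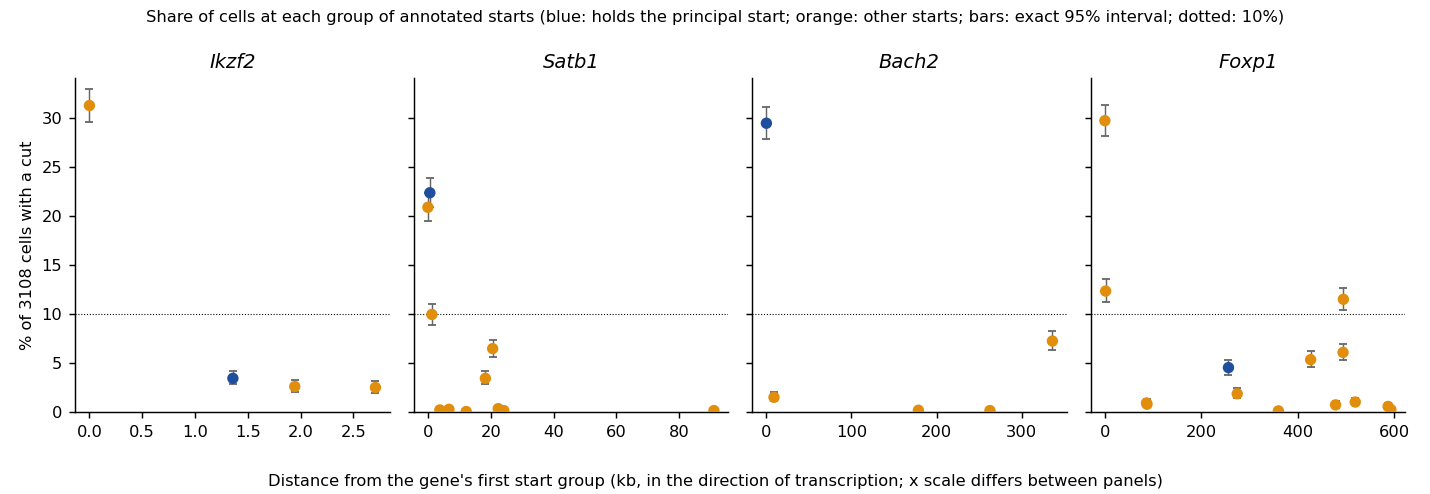
Share of 3108 HSCs (y axis, %) with a cut at each group of annotated starts of Ikzf2, Satb1, Bach2 and Foxp1, placed by distance from the first start group in kb (x axis, scale differs between panels), with exact 95% intervals. The first group is open in each of these genes, at 31.2%, 20.9%, 29.4% and 29.7%, and the principal start (blue) is at 3.47% and 4.57% for its group in Ikzf2 and Foxp1.

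Each gene body with 100 kb on either side was next read in 500-bp bins, and a bin was called open when 5% or more of the cells had a cut in it. Of 6047 bins, 83 were open, or 1.37%, against 0.876% of all bins of the genome. The count by gene was 23 for Ikzf3, 16 for Bach2, 12 for Foxp1, 11 for Ikzf1, 6 for Ikzf5 and 5 each for Ikzf2, Satb1 and Dntt. A typical bin in these windows was cut in few cells, with medians between 0.0322% (Ikzf5) and 0.225% (Ikzf3). The windows hold other genes as well, from 0 other protein-coding genes around Ikzf2 and Satb1 to 12 around Ikzf3, and this bears on the counts. In the body of Ikzf3 itself there were 16.9 cuts per kb, 0.600 times the genome mean of 28.2, although its window had 93.3 cuts per kb. The bodies of Ikzf1 and Dntt had the most, with 76.1 and 66.4 cuts per kb.

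Neighboring open bins were joined into 47 regions. Of these, 10 lay within 1000 bp of a start of the member itself, 14 at the start of another gene and 23, or 48.9%, further than 1000 bp from every annotated start, which are called distal here. Of the 25334 open regions of the genome, 47.4% were distal, so the balance in these windows was near the background. The 23 distal regions were cut in 5.08% to 31.7% of cells with a median of 7.85%, and 7 of them were cut in 10% or more. Introns held 12 of them, 5 being introns of the member's principal transcript and 1 an intron of another Foxp1 transcript, and 7 were intergenic. Which gene a distal region acts on cannot be read from these data.

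**Figure D3:**
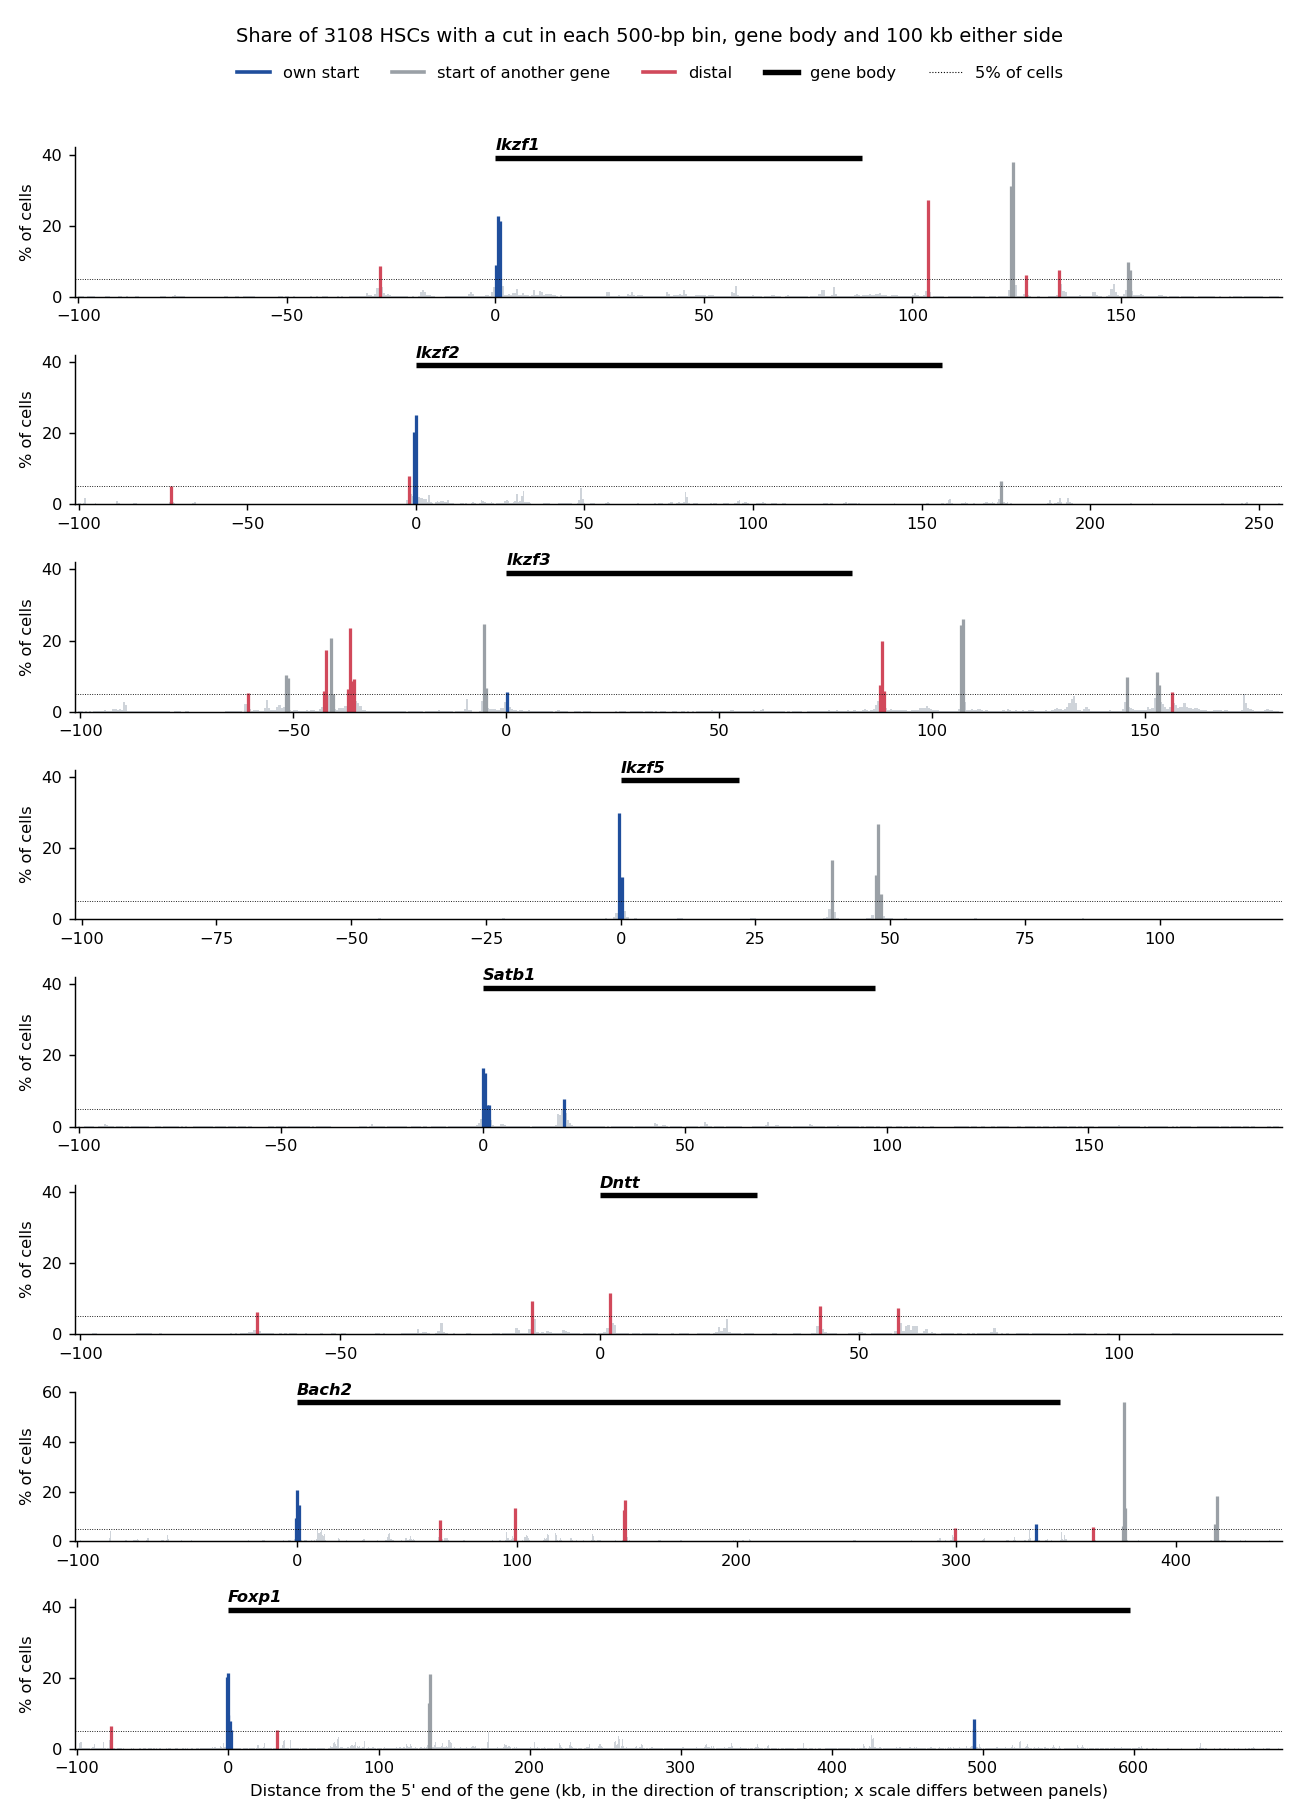
Share of 3108 HSCs (y axis, %) with a cut in each 500-bp bin, against distance from the 5′ end of each gene in kb along the direction of transcription (x axis, scale differs between panels); open bins are blue at a start of the gene, gray at the start of another gene and red where distal, and the black bar is the gene body. Dntt has red bins only, with the highest at 11.5%, Satb1 and Ikzf5 have none, and the highest bin, 56.1% in the window of Bach2, is the start of another gene, Casp8ap2.

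The window of Ikzf3 held the distal region with the largest share of the 23 as joined, although its own start was cut in 6.56% of cells. That region is 2000 bp wide with a highest bin of 23.6%, below the single bin of 27.2% near Ikzf1. The leading one, chr11:98581501-98583500, lay 36.8 kb upstream over the last exons of Ormdl3, a gene of sphingolipid control, and was cut in 31.7% (30.1 to 33.4). A second at chr11:98457001-98458500, 7.01 kb past the end of Ikzf3 and 3.96 kb from a start of the adaptor gene Grb7, had 24.0% (22.5 to 25.6). Another at chr11:98588001-98589000, 42.3 kb upstream and 1.13 kb from a start of Ormdl3, had 18.6% (17.2 to 19.98). The 3 lie closer to starts of other genes than to that of Ikzf3. The start of Zpbp2, 5.06 kb upstream of Ikzf3, was cut in 25.5%.

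Ikzf1 had 4 distal regions. The leading one, chr11:11788501-11789000, lay 15.9 kb past the end of the gene in an exon of a noncoding transcript of the neighbor Fignl1, 12.7 kb from the nearest start. It was cut in 845 cells, or 27.2% (25.6 to 28.8), in a single bin, a share whose interval overlapped that of the principal Ikzf1 start at 26.9%. The next, 27.7 kb upstream of Ikzf1 at chr11:11657001-11657500, had 8.69% (7.72 to 9.73). The other 2, downstream near Fignl1 and Ddc, had 6.15% and 7.50%.

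Bach2 had 5 distal regions, 4 of them in its own introns. The leading one in the second intron, 149 kb into the gene, had 20.3% (18.9 to 21.7). A second in the same intron, 99.0 kb into the gene at chr4:32337501-32338000, had 13.3% (12.1 to 14.6), and another in the first intron, 65.2 kb in, had 8.53%. The fourth intronic region and the one past the gene end had 5.47% and 5.79%. Bach2 was thus the member with an open start and several open elements inside its own body.

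Dntt was the reverse case at its own start. The enzyme it encodes is a classic marker of lymphoid precursors. Its start was cut in 10 cells, or 0.322%, in a window whose median bin was cut in 0.0965%, while a bin in the first intron, 1.95 kb past the gene start at chr19:41031001-41031500, was cut in 358 cells, or 11.5% (10.4 to 12.7). This region lay 1.87 kb from the nearest annotated start of any gene. A second region 13.1 kb upstream at chr19:41016001-41016500 had 9.23%. The remaining 3 lay in introns of the neighbors Blnk, Opalin and Tll2, 66.1 kb upstream and 42.5 and 57.5 kb downstream of the Dntt start, with 6.15%, 7.85% and 7.37%.

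Ikzf2 and Foxp1 each had 2 distal regions. For Ikzf2 they had 7.98% (7.05 to 8.99), 1.93 kb upstream at chr1:69689001-69689500, and 5.08%, 72.5 kb upstream. For Foxp1 they had 6.40% (5.57 to 7.32), 77.6 kb upstream at chr6:99600001-99600500, and 5.24%, 32.6 kb into the gene. Ikzf5 and Satb1 had 0 distal regions at this threshold. In the body of Foxp1, 134 kb from its first start, a region near the start of the noncoding gene Gm20705 was cut in 25.6% of cells.

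**Figure D4:**
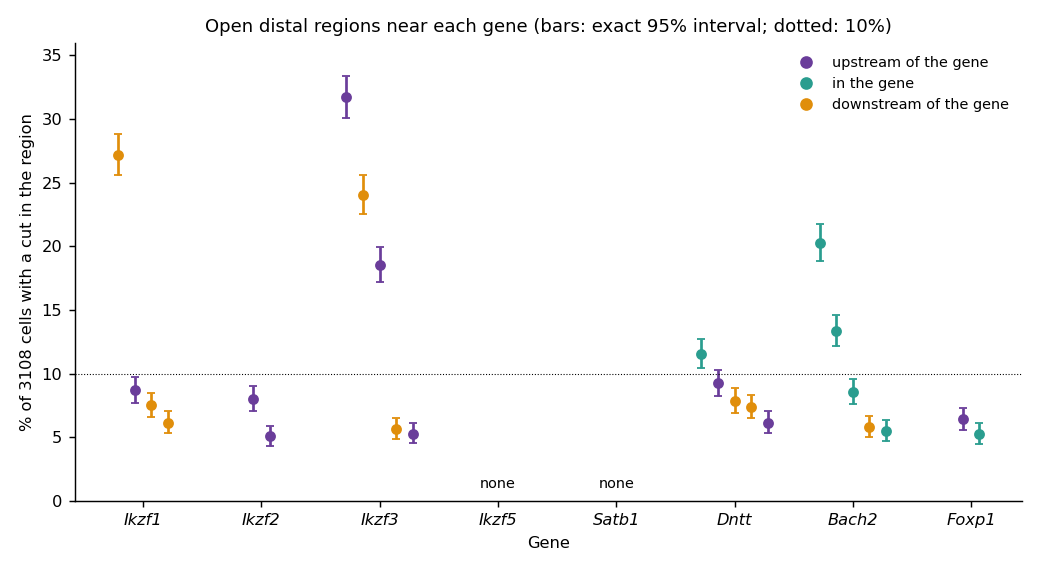
Share of 3108 HSCs (y axis, %) with a cut in each of the 23 open distal regions, by gene (x axis) and colored by position relative to the gene, with exact 95% intervals. The leading regions of Ikzf3 (31.7%), Ikzf1 (27.2%) and Bach2 (20.3%) have larger shares than those of the other genes, 4 of the 5 Bach2 ones lie inside the gene, and Ikzf5 and Satb1 have none.

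Fragment length differed between these sites. Fragments shorter than 150 bp, which come mostly from DNA free of nucleosomes, made up 46.1% of all fragments. They made up 70.9% (68.4 to 73.3) of the 1380 fragments at the Ikzf5 start, 58.6% (56.0 to 61.2) of the 1408 at the upstream Ikzf2 start, 46.1% (43.1 to 49.1) at Ikzf1, 44.8% at Bach2, 38.3% (35.1 to 41.6) at Satb1 and 35.4% (32.7 to 38.2) at the upstream Foxp1 start. Among the 4 principal starts cut in under 10% of cells, the share was 34.5% (28.4 to 40.9) of 238 at Ikzf3, 23.8% (17.3 to 31.4) of 151 at Foxp1 and 22.7% (15.3 to 31.7) of 110 at Ikzf2, and Dntt had only 10 fragments. Among distal elements the share was 59.4% (54.8 to 64.0) at the Dntt intron, 51.5% (48.0 to 54.9) at the Bach2 intron and 40.1% (37.1 to 43.2) at the Ikzf1 element. Open sites of these genes therefore ranged from mostly short to mostly longer fragments, and fragments of 1 cell are not independent, so these intervals are too narrow.

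CpG content varied among both starts and distal elements. In 300 bases around the densest cuts, the ratio of CpG dinucleotides to the number base composition would give was 1.21 at the upstream Ikzf2 start, 1.08 at Bach2, 0.945 at Ikzf1, 0.850 at Satb1, 0.796 at Ikzf5 and 0.751 at the upstream Foxp1 start. It was 1.11 at Ikzf3, a start as CpG-rich as the open ones but cut in 6.56% of cells. The other rarely cut principal starts had 0.453 (Ikzf2), 0.377 (Dntt) and 0.227 (Foxp1). At the leading distal element of 5 of the genes it was 0 for Ikzf1, 0.145 for Ikzf3, 0.287 for Ikzf2, 0.505 for Foxp1 and 0.512 for Dntt, against a median of 0.279 over the distal open regions of the genome. The second Ikzf3 distal region, at 0.770, lay above the upstream Foxp1 start, so the ranges of starts and distal elements overlapped. The leading Foxp1 element held the Ikaros word 2 times and the Ikzf2 element the RUNX word 2 times, words that 26.5% and 28.9% of distal regions held at least once.

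Deeper cells had cuts in these genes more often. The cells were split by their fragment number into 3 groups of 1036 cells with medians of 8119, 11457 and 14574.5 fragments. The Ikzf5 start was cut in 24.1%, 32.7% and 39.6% of these groups, the Ikzf1 start in 19.3%, 27.9% and 33.5%, the Satb1 start in 14.7%, 23.6% and 28.9%, and the Bach2 start in 18.4%, 25.5% and 30.3%. Across all 19 sites the deepest group had 1.25 to 2.37 times the share of the shallowest. The Dntt intron element had 9.17%, 8.69% and 16.7%, and was the only site of the 19 other than the Dntt start where the middle group was not above the shallowest.

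**Figure D5:**
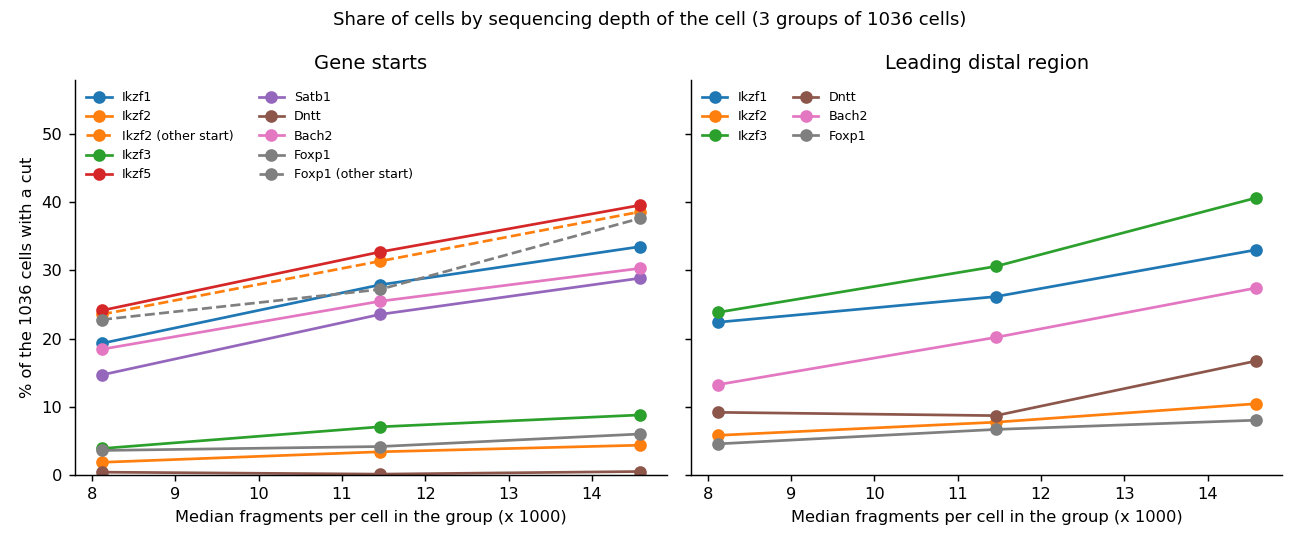
Share of the 1036 cells in each depth group (y axis, %) with a cut at the gene starts (left) and at the leading distal region (right), against the median number of fragments per cell in the group, in units of 1000 (x axis). The shares go up with depth at each step except the first at the Dntt sites, from 24.1% to 39.6% at the Ikzf5 start, and the lines of the rarely cut starts stay under 10%.

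When every cell was reduced to 5000 fragments drawn at random, which left out 95 shallower cells and kept 3013, the shares were lower and the order of the 8 principal starts was the same. The starts had 15.9% (Ikzf5), 15.4% (Ikzf2, upstream), 14.4% (Foxp1, upstream), 13.5% (Ikzf1), 13.1% (Bach2) and 10.4% (Satb1), and the principal starts of Ikzf3, Foxp1, Ikzf2 and Dntt had 2.95%, 2.22%, 1.33% and 0.0332%. The 4 genes open at the principal start were the same as with all fragments, and 28.9% of all genes were open at this depth. The distal regions had 16.0% (Ikzf3), 12.98% (Ikzf1), 9.56% (Bach2) and 5.44% (Dntt).

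Counted per cell at this equal depth, HSCs had a median of 2 of the 8 genes with a cut at the principal start or at a distal region of the window. This count takes in distal regions that lie nearer to other genes, such as those around Ikzf3, and leaves out the upstream starts of Ikzf2 and Foxp1, and it was not set beside other genes. At least 1 of the 8 was counted in 84.6% of cells, exactly 1 in 34.5%, exactly 2 in 30.0%, and 4 or more in under 5% (4.25% had 4, 0.465% had 5 and 0.100% had 6). With all fragments the median was 3 and 97.0% of cells had at least 1.

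The paper describes Vwf reporters as only moderately selective markers of platelet-biased HSCs. The cells were also split by a cut in the 3 most covered 1000-bp bins inside Vwf, with the member shares taken at 5000 fragments a cell. A cut there is not a measure of Vwf expression, so the split does not separate platelet-biased from other HSCs. The 1456 cells with such a cut had a median of 12026 fragments before thinning and the 1557 others 11072, and both had about 70% of their fragments in peaks (70.4% and 70.7%). Of the 19 sites, 9 had the larger share in cells with a Vwf cut, and the intervals did not overlap at 1, against 0.474% of all open regions and 0.254% of principal starts. That site was the second Bach2 intron element, with 7.28% (6.00 to 8.74) in cells with a Vwf cut and 4.75% (3.75 to 5.93) in the others. The largest difference the other way was at the Ikzf5 start, with 14.3% (12.5 to 16.2) and 17.4% (15.6 to 19.4), followed by the Ikzf1 start with 12.4% (10.8 to 14.2) and 14.6% (12.9 to 16.4). The Dntt intron element had 5.63% (4.50 to 6.94) and 5.27% (4.21 to 6.50). With all fragments, where the cells with a Vwf cut were the deeper ones, 17 of the 19 sites had the larger share in those cells. The intervals then did not overlap at 4 of the 19, against 11.2% of all open regions and 9.31% of principal starts. The direction at the Ikzf1 start then turned, with 27.7% and 26.2%, and the Ikzf5 start had 31.8% and 32.5%. These are parts of 1 library, and no test between them was made.

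Among the closest relatives of the members, 5 of 8 paralogues were open at the principal start, against 4 of the 8 members and 44% of all genes. Their median share was 18.0%, against 14.5% for the members and 6.98% for all genes. With the annotated start of highest share, 7 of the 8 paralogues and 6 of the 8 members were open, against 47.8% of all genes. Bach1, the relative of Bach2, had 44.7%, Foxp4 25.6%, the polymerase gene Polm, a relative of Dntt, 21.3%, Ikzf4 (Eos) 20.8% and Foxp2 15.3%. Poll had 7.50% and Foxp3, the factor of regulatory T cells, 0.129%. Dntt and Polm encode related enzymes, and their intervals, 0.154 to 0.591 and 19.8 to 22.7, lay far apart.

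Of 26 other genes of the lymphoid program, 9 were open at the principal start and 13 at any start, against 44% and 47.8% of all genes. The open ones were the transcription factor genes Tcf3 (E2A) at 62.5%, Foxo1 at 39.0%, Ets1 at 38.4%, Runx3 at 37.2%, Sox4 at 23.6%, Bcl11a at 20.1% and Gata3 at 10.3%, and the receptor genes Notch1 at 20.4% and Flt3 at 20.3%. Other transcription factor genes of the list were not open there, such as Lef1 at 5.89% and Bcl11b at 3.09%. The recombinase genes Rag1 and Rag2 had 0.804% and 0.869%, the antigen-receptor complex genes Cd79a and Cd3e 0.997% and 0.161%, and Il7r, the receptor of interleukin-7, had 0.322%. Ebf1 and Pax5, the factors that fix B cell identity, had 6.66% and 2.16% at the principal start. The 4 genes that were open only at another annotated start were Mef2c with 39.2%, Pax5 with 23.8%, Vpreb1 with 16.4% and Tcf7 with 15.2%, against 0.0965%, 2.16%, 0.290% and 7.46% at the principal one. The Dntt start, at 0.322%, had the same share as that of Il7r, and its interval overlapped those of Rag1 (0.521 to 1.19) and Rag2 (0.573 to 1.26). The list was chosen with earlier results of these data known, and its median of 2.62% stood beside 6.98% for all genes.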

How the data were processed

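Chromatin accessibility was measured in sorted mouse HSCs with DOGMA-seq. Per the file headers, the authors made the deposited fragments with cellranger-arc 2.0.2 on mm10 and called cells from the accessibility and RNA data together; the deposited values used were counts, namely fragments with their number of read pairs and, per barcode, the count of fragments and of fragments in peaks. The antibody table and the RNA were not used here. Here, called cells with more than 3000 fragments in peaks were kept (3108 of 3757, 82.7%, 37191568 fragments); the further quality filters of the study were not applied and no doublet caller was run. No fragment of the 20 chromosomes ran past the end of its GRCm38 chromosome. Genes and starts came from GENCODE vM21. The principal start was that of the transcript with the best APPRIS rank. Fragment ends were used as deposited, with no further shift. Windows of 500 bp either side of a start, open at 10% of cells, and 500-bp bins, open at 5%, were counted with Python 3.11.15, numpy 2.4.6, scipy 1.17.1 and pandas 2.3.3, and the counting was tested on simulated data. Sequences were read from the RefSeq GRCm38 genome in windows of 300 bases centered on the densest cuts (within a span of 50 bp). All 8 genes are named, with genes of the lists; a selection of the sequences is printed, and some list genes are not reported here. The members, lists and thresholds were chosen with earlier results of these data known. With 1 library, no test was made, and no gene could be ranked by likeness of its pattern over conditions. Intervals cover counting error only, since fragments of a cell come from few DNA copies. The alternatives tried are given in the closing section.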

Additional observations from a re-analysis of the deposited data

How the results depend on the processing

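The 4 members open at the principal start became 3 with fragments shorter than 150 bp (Satb1 at 9.62%), 5 in cells with more than 10000 fragments in peaks or at a threshold of 5% (Ikzf3 joined in each), and 6 with the annotated start of highest share or with the first annotated start. The share of all protein-coding genes open under these settings, in the same order, was 32.1%, 51.5%, 54.6%, 47.8% and 42.9%, against 44% as reported. The order of the genes depended on the start and the window: the 4 leading genes stayed above the other 4 in every setting except these choices of another start. The lead passed from Ikzf5 to Ikzf1 with a window of 1000 bp (34.9% and 32.9%) and with the start of highest share (33.4% and 32.3%). The number of open bins and of distal regions moved with depth and threshold. They were 133 and 44 in cells with more than 10000 fragments in peaks, 36 and 7 at 5000 fragments a cell, 38 and 8 with fragments shorter than 150 bp, 37 and 7 with a bin threshold of 10%, and 212 and 69 with one of 2%, against 83 and 23. The shares of open bins and of distal regions over the genome were not taken under these settings, so these counts have no background. With all fragments of a cell, 4 of the 19 sites in place of 1 had intervals that did not overlap between cells with and without a Vwf cut. So did 11.2% of all open regions and 9.31% of principal starts, and the cells with a cut were the deeper ones. In all, 34 of 45 alternative counts, the member counts above among them, stayed within 1.5 times the reported one. That limit is wide for counts out of 8, and 6 members in place of 4 just met it. Of 130 alternative shares of single genes and elements, 45 lay within the reported interval and 85 outside it; the window of 1000 bp gave 27.6% at the lowest of the 4 leading starts and 7.46% at the highest of the others. No paired analysis was possible because there was 1 library and no test. The shares varied with depth. Across the 19 sites the deepest 1036 cells had 1.25 to 2.37 times the share of the shallowest 1036, so each share holds for the depth at which it was taken.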
